A study of Parasteatoda tepidariorum with 10 samples.

Results

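Among 41314 stretches of chromatin that carried a peak in at least 1 wild-type library of early embryos of the house spider *Parasteatoda tepidariorum*, 1216 (2.94%) carried one in all 6, from before the germ disc forms until it is forming. These regions, called members here, were found by cutting each wild-type peak list to its 12494 peaks of highest signal, the length of the shortest list, and merging peaks that overlapped by at least 1 bp. A member is a merged region with a peak in both libraries of stages 1, 2 and 3. The members were thus chosen by the rank of their wild-type peaks, and what these lists show about the members is a description without a test. The 4 libraries from knockdown embryos took no part in the choice.

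The series holds 10 ATAC-seq libraries, 2 in each of 5 groups, made from whole embryos of the Osaka isolate. The knockdown groups were *fuchi* pRNAi and *Pt-hh* pRNAi embryos of stage 3, at 18 h after egg laying (AEL), and the wild-type groups were stage 1 (9 h AEL), stage 2 (12 h AEL) and stage 3 (18 h AEL). In parental RNA interference (pRNAi) mated females receive double-stranded RNA and their eggs are examined, so that a knockdown can be partial and can differ between egg sacs. The females received 3 injections for *fuchi* and 4 for *Pt-hh*, with no injected control group among these libraries. Each stage-3 library came from 40 embryos and each stage-1 or stage-2 library from 200. Both *fuchi* pRNAi libraries, replicate 1 of *Pt-hh* pRNAi and replicate 2 of wild-type stages 2 and 3 came from line 40, stage-1 replicate 2 came from a source labelled KK-274, and the others came from line 39.

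ATAC-seq cuts DNA with a transposase where nucleosomes and other proteins leave it exposed, so a peak marks accessible DNA such as an active promoter or enhancer. In animal embryos the early genome is largely silent, and accessible sites accumulate as zygotic transcription begins. Promoters of genes needed in every cell are a known class of sites that stay open, whereas enhancers open and close with cell fate. *fuchi* encodes a GATA-like zinc finger transcription factor and *Pt-hh* encodes the spider Hedgehog, a secreted signal that patterns the embryo. The lists do not measure RNA, so the knockdown itself was not checked here, and whole embryos mix all cell types, so that a region open in fewer cells cannot be told apart from one less open in each cell.

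Most regions were found in few lists. Of the 41314 regions, 26283 had a peak in 1 wild-type list, 6560 in 2, 3604 in 3, 2196 in 4, 1455 in 5 and 1216 in all 6. The deposited lists differed in length, with 24066 and 137892 peaks at stage 1, 51893 and 23985 at stage 2 and 19812 and 12494 at stage 3. Stage-1 replicate 2, the longest list and the only one of its source, set the number of members more than any other library. Of the 1455 regions found in 5 lists, 747 lacked a peak there, and 526 of these had a weaker deposited peak in that library. Without it, 1961 regions had a peak in the other 5 lists. Just inside the list length, the 3 members nearest to it had their weakest peak at ranks 12488 and 12480 of stage-2 replicate 1 and 12472 of stage-1 replicate 2. Just outside it, 3 regions missed by a peak at ranks 12500 and 12506 of stage-3 replicate 1 and 12501 of stage-2 replicate 2.

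The members were among the strongest peaks of every library. Signal is the area of significance that the peak caller adds up along a peak, and it is given here as a percentile, the rank of a region's strongest peak within its own list, with 100 for the top. The median percentile of the members was 93.2 and 91.0 in the stage-1 libraries, 91.1 and 93.0 in the stage-2 libraries and 86.0 and 90.7 in the stage-3 libraries. The members held 10.4% to 10.9% of the peaks of a wild-type list but 19.7% to 26.8% of its signal. Of the 100 peaks of highest signal in a wild-type list, 94 to 99 lay in members, depending on the library. In the knockdown lists, cut to 10616 peaks, 99 and 95 did under *fuchi* pRNAi and 87 and 94 under *Pt-hh* pRNAi. The spread was wide all the same, for the weakest member of each wild-type list lay between percentiles 0.0560 and 3.04.

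**Figure D1:**
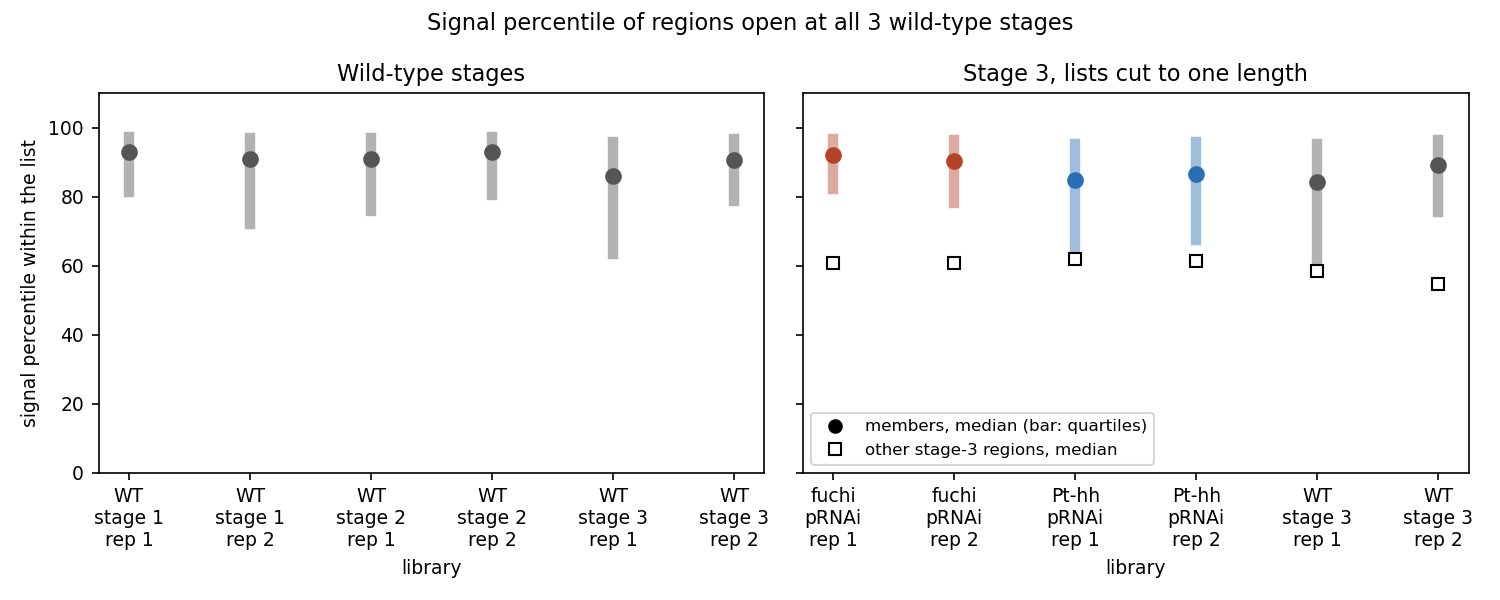
Signal percentile of the 1216 members (y axis, 100 is the strongest peak of a list) in each library (x axis). Circles are medians and bars run between the quartiles. The left panel has the 6 wild-type libraries with lists of 12494 peaks, the right panel the 6 stage-3 libraries with lists of 10616 peaks and, as open squares, the medians of the 6699 other wild-type stage-3 regions. Member medians lie between 84.4 and 93.2 throughout, and those of the other regions between 54.9 and 61.9.

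Some members were strong at every stage and others moved through the whole list. In all 6 wild-type libraries 458 members (37.7%) stayed at percentile 75 or more and 228 stayed at 90 or more, whereas 223 lay under 25 in at least 1 library. The range of a member over the 6 libraries had a median of 33.9 percentile points. Replicates of a stage differed in a member by a median of 5.61 points at stage 1, 7.63 at stage 2 and 6.87 at stage 3. Across the members, the rank order of the 2 replicates gave a Spearman's rho of 0.67 at stage 1, 0.53 at stage 2 and 0.77 at stage 3, described over 1216 regions that share a library and so are not independent. Stage-3 replicate 1 was the lowest of the 6 libraries for 460 members and stage-1 replicate 2 for 251.

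The 10 members with the highest mean percentile kept nearly the same rank throughout. The region NW_018376755.1:35926-39945 (Ptep_2.0) was the strongest of all, at rank 1 or 2 in each of the 10 lists. Its signal was 15713 and 19310 under *fuchi* pRNAi, 13207 and 13388 under *Pt-hh* pRNAi and 13196 and 15110 in stage-3 wild type, against 33187 and 36215 at stage 1. Signal is not scaled between libraries, and ranks rather than these values can be set side by side. NW_018374349.1:6332-9355 took the other of the first 2 ranks in every list. The next was NW_018372208.1:2390-5417, at a mean wild-type percentile of 99.97 ± 0.02 (SD, n = 6 libraries). These 3 regions were 4020, 3024 and 3028 bp wide. Of the 10, 5 lay on scaffolds whose last peak in any of the 10 deposited lists ended before 100 kb, which does not give the length of the scaffold: the 3 just named, NW_018382869.1:12589-13483 and NW_018369057.1:24541-25741. The other 5 were NW_018380111.1:10592-13180, NW_018373122.1:60729-63849, NW_018372925.1:203649-207339, NW_018374540.1:106371-109077 and NW_018373864.1:2918662-2920813. The lowest percentile of any of the 10 was 99.8, in *Pt-hh* pRNAi replicate 1, so none left the top of a list in any knockdown library. Neither the sequence of these 10 regions nor its number of copies was examined, and the reason for their high rank was not tested.

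Scaffolds with no peak beyond 100 kb held a larger share of the members than of regions in general. On them lay 89 members (7.32%), against 2.83% of all regions, and 23 of the 228 members at percentile 90 or more in all 6 libraries (10.1%). The members lay on 419 of the 1312 scaffolds that carried a region, with 1 member on 172 scaffolds and 16 at most. The largest numbers were 16 of 1103 regions on NW_018370506.1 (1.45%), 14 of 343 on NW_018379904.1 (4.08%) and 14 of 58 on NW_018382158.1 (24.1%). Members made up 2.94% of all regions, so the first of these scaffolds held a smaller share than regions in general. Of these members, 14, 12 and 14 had a peak in all 4 knockdown libraries. Across scaffolds, the number of members followed the number of regions with a Spearman's rho of 0.68, as a description.

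Part of the members stood close together. The distance from a member to the nearest other one on its scaffold had a median of 102 kb, but 256 members (21.1%) lay within 10 kb of another and 92 within 1 kb. Neighbouring regions of any kind lay a median of 5.79 kb apart. The share of all regions within 10 kb of another was not computed, so closeness is not read as a trait of the members. The 256 formed 104 groups, of which 75 were pairs. The largest group was 7 members within 29.3 kb at NW_018382158.1:784305-813603, with a median wild-type percentile of 96.5. The next were 6 members within 14.0 kb at NW_018373501.1:43432-57464 and 5 within 20.2 kb at NW_018369779.1:21404-41650.

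The members were wide regions, and the place of their summits varied between libraries. The merged region had a median width of 959.5 bp, with quartiles of 676 and 1336 bp and a range of 156 to 7489 bp, against 721 bp for the 6699 regions found in both stage-3 wild-type lists that were not members and 580 bp for all regions. Merging more lists widens a region, so single peaks are the fairer measure. The members' strongest peak had a median width of 685 and 653.5 bp at stage 1, 558.5 and 646.5 bp at stage 2, and 658.5 and 608.5 bp at stage 3. Where the other stage-3 regions had a peak, its median width was 601 and 628 bp, 468 and 520 bp, and 584 and 507 bp in the same libraries. The gap was smallest in stage-1 replicate 2. Of the members, 965 had exactly 1 peak in each wild-type library, and 1174 had at least 1 base that lay under a peak in all 6 lists. The 6 summits of a member spanned a median of 182.5 bp, with an upper quartile of 382.5 bp and a maximum of 4696 bp. They fell within 100 bp of each other in 376 members and within 200 bp in 655.

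The 3 widest members were broad in some libraries only. NW_018367626.1:113288-120776 owed its 7489 bp to a peak of 7430 bp in stage-3 replicate 1, while its peak was 787 to 1202 bp wide in every other library. NW_018373864.1:4340289-4346557 had peaks of 1397 and 1966 bp under *fuchi* pRNAi, 5320 and 3360 bp under *Pt-hh* pRNAi and 3243 and 2652 bp in stage-3 wild type, against 1724 and 1463 bp at stage 1 and 296 and 1242 bp at stage 2. At NW_018376210.1:333377-340096 the knockdown replicates differed from each other. *fuchi* pRNAi replicate 1 had no peak and replicate 2 had one of 6597 bp, the peaks under *Pt-hh* pRNAi were 7552 and 3310 bp wide, and those of stage-3 wild type were 6666 and 6711 bp wide.

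From stage to stage the members' ranks changed in both directions. The median change of a member's mean percentile was -0.01 points for stage 2 minus stage 1, -1.12 for stage 3 minus stage 2 and -0.96 for stage 3 minus stage 1. Both stage-3 libraries ranked above both stage-1 libraries in 259 members (21.3%) and below both in 403 (33.1%), against 22.5% and 29% of the 1691 regions, members included, with a peak in those 4 lists. With a change of at least 20 points as well, 114 members (9.38%) were higher at stage 3 than at stage 1 and 166 (13.7%) were lower, against 12.2% and 13.5% of the 1691. By the same count 61 members (5.02%) were higher and 55 (4.52%) lower at stage 2 than at stage 1, against 4.99% and 5.86% of 1484 regions, and 78 (6.41%) were higher and 146 (12.0%) lower at stage 3 than at stage 2, against 14.1% and 11.6% of 2567 regions.

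NW_018370960.1:612822-614366 moved most towards stage 3. Its percentile was 2.84 and 19.6 at stage 1, 94.3 and 95.9 at stage 2 and 95.3 and 98.3 at stage 3, so most of the difference lay between stages 1 and 2. NW_018378850.1:1549638-1550338 stood at 28.9 and 1.35 at stage 1, 53.5 and 18.9 at stage 2 and 90.5 and 92.7 at stage 3. It was thus still low in stage-2 replicate 2. NW_018375016.1:6848571-6849329 stood at 1.56 and 34.9 at stage 1, 89.2 and 86.8 at stage 2 and 90.6 and 92.8 at stage 3, like the first of the 3.

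Of the 3 members that moved most in the other direction, NW_018379581.1:122809-124323 had the clearest order, at 94.3 and 93.9 at stage 1, 88.6 and 97.0 at stage 2 and 19.2 and 25.9 at stage 3. NW_018375723.1:622750-623412 stood at 79.9 and 85.5 at stage 1, 29.3 and 82.1 at stage 2 and 6.85 and 12.3 at stage 3. NW_018382482.1:110771-111569 stood at 92.9 and 72.6 at stage 1, 16.3 and 92.9 at stage 2 and 16.6 and 8.96 at stage 3. In both of these the stage-2 replicates lay far apart.

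In the knockdown embryos nearly all members still had a peak. For these libraries each list was cut to 10616 peaks, the length of the shortest of the 4. Of the 1216 members, 1191 and 1192 (97.9% and 98.0%) had a peak under *fuchi* pRNAi, and 1162 and 1177 (95.6% and 96.8%) had one under *Pt-hh* pRNAi. A peak in all 4 libraries was found in 1117 members (91.9%), against 12.2% of all regions and 50.6% of the 6699 other stage-3 regions. The share with a peak in all 4 was 0.575% for regions of 1 wild-type list and 9.65%, 28.9%, 49.95% and 69.6% for regions of 2, 3, 4 and 5 lists, against the 91.9% of the members.

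**Figure D2:**
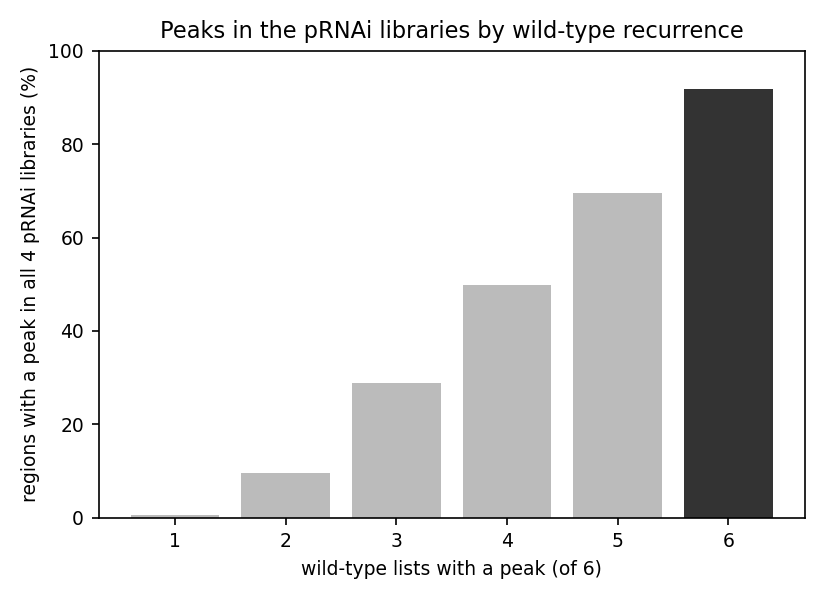
Share of regions with a peak in all 4 knockdown libraries (y axis, %) for regions found in 1 to 6 of the 6 wild-type lists (x axis); the dark bar is the members. The share was 0.575% at 1 list and 91.9% at 6.

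The members kept a peak more often than the other stage-3 regions in each of the 4 libraries. The other regions had a peak in 67.2% and 74.5% of cases under *fuchi* pRNAi and in 80.6% and 81.5% under *Pt-hh* pRNAi. The members were thus 21.1 ± 7.52 points higher on average (SD, n = 4 libraries; 14.97 to 30.7). Their median percentile was 92.2 and 90.3 under *fuchi* pRNAi and 84.8 and 86.6 under *Pt-hh* pRNAi, against 60.9 and 60.8, and 61.9 and 61.3, in the other regions, a mean difference of 27.2 ± 3.87 points (22.8 to 31.3). Their strongest peaks were wider by 101 ± 29.0 bp (67 to 138 bp). All 3 differences had the same sign in 4 of 4 libraries, and each gave p = 0.125 in an exact two-sided sign-flip permutation test, the smallest that 4 libraries allow (adjusted p = 0.208 over the 5 tests made, Benjamini-Hochberg). The members were chosen by wild-type signal, which adds up along a peak and so grows with its width. Higher percentiles and wider peaks at the same places in further stage-3 lists are therefore in part fixed by that choice. Nothing in the labels says whether the 2 libraries of a group came from different mothers, and the p-values measure only the spread between libraries. When the wild-type stage-3 replicate 1 or 2 took no part in choosing the regions, the difference in share was 37.1 or 37.3 points. The other regions then needed a peak only in the 1 remaining stage-3 list, and the members in fewer lists. Neither group was thus the one compared above, and the larger difference is not a change in the same contrast.

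**Figure D3:**
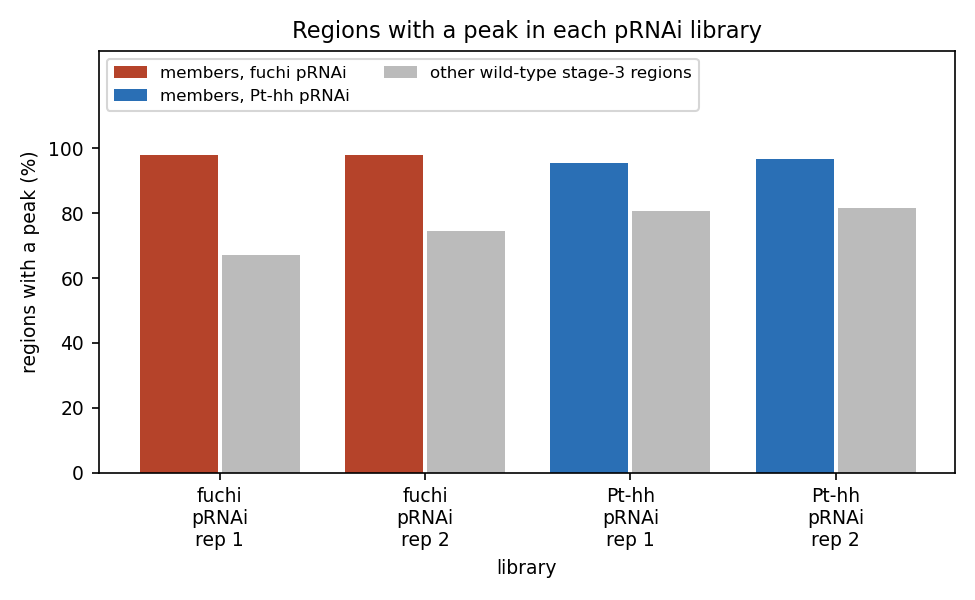
Share of regions with a peak (y axis, %) in each of the 4 knockdown libraries (x axis), as 1 value per library; coloured bars are the 1216 members and grey bars the 6699 other wild-type stage-3 regions. The members lie at 95.6% to 98.0% and the others at 67.2% to 81.5%.

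Strong peaks are less likely to fall out of a cut list, and the members are strong, so both kinds of region were divided into 4 equal parts by their mean percentile in the stage-3 wild type. The lowest part held 44 members and 1935 other regions, and the highest held 740 and 1239. The members stayed the stronger within each part, so strength was not made equal. Their median stage-3 percentile was 34.5, against 29.0 for the others, in the lowest part and 94.4, against 88.2, in the highest. In the lowest part a peak was kept by 86.4% and 86.4% of the members under *fuchi* pRNAi, against 49.3% and 52.7% of the other regions. Under *Pt-hh* pRNAi these values were 61.4% and 72.7% for the members, against 60.2% and 62.2% for the others, so that 1 of the 2 libraries showed nearly no difference. In the highest part the members stood at 99.2% and 99.3% under *fuchi* pRNAi, against 89.1% and 96.3%, and at 99.5% and 99.6% under *Pt-hh* pRNAi, against 98.4% and 97.3%. No test was made within these parts.

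**Figure D4:**
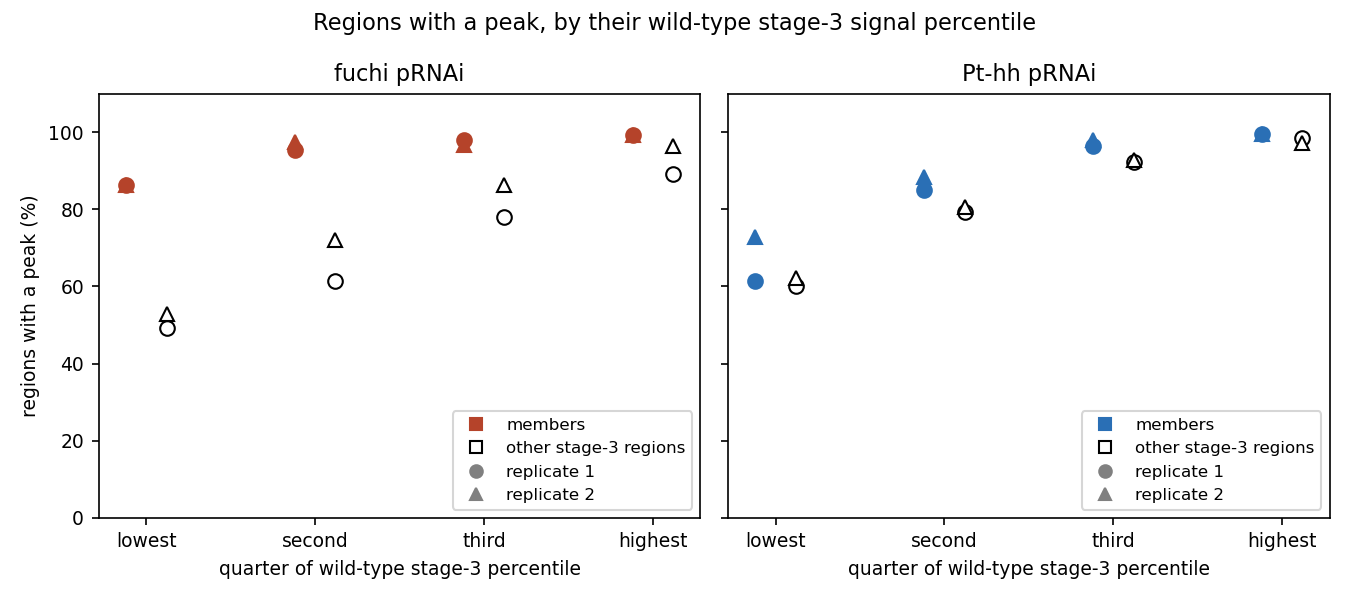
Share of regions with a peak (y axis, %) by the region's mean wild-type stage-3 percentile, in 4 parts with nearly equal numbers of regions (x axis, weakest on the left). Filled symbols are members, open symbols other stage-3 regions, circles replicate 1 and triangles replicate 2. In the weakest part members lie at 86.4% under *fuchi* pRNAi, against 49.3% and 52.7% for the others, and at 61.4% and 72.7% under *Pt-hh* pRNAi, against 60.2% and 62.2%.

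The summits in the knockdown libraries lay near those of the stage-3 wild type. The summit in a knockdown library lay a median of 21 and 20 bp from the mean of the stage-3 wild-type summits under *fuchi* pRNAi and 18.5 and 17 bp under *Pt-hh* pRNAi. In the other stage-3 regions these distances were 32.5 and 33.5 bp, and 26 and 25.5 bp. The ranks kept their order too. Across the members, Spearman's rho was 0.68 to 0.89 over the 15 pairs of stage-3 libraries, 0.52 to 0.75 over the 6 pairs of stage-1 and stage-2 libraries and 0.27 to 0.71 over the 24 pairs of 1 early and 1 stage-3 library, as a description of regions that share their libraries.

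In the cut lists the members ranked higher under *fuchi* pRNAi than under *Pt-hh* pRNAi. The share with a peak was 97.99 ± 0.058% in the *fuchi* pRNAi libraries and 96.18 ± 0.872% in the *Pt-hh* pRNAi libraries (SD, n = 2 each), a difference of 1.81 points. The median percentile was 91.2 ± 1.28 in the *fuchi* pRNAi libraries and 85.7 ± 1.28 in the *Pt-hh* pRNAi libraries, a difference of 5.57 points. The groups did not overlap in either measure, and each exact two-sided permutation test gave p = 0.333, the smallest possible with 2 libraries against 2 (adjusted p = 0.333). Both differences turned round when all deposited peaks were used, to -4.41 points in the share and -3.45 points in the percentile. The medians also followed the length of the deposited lists. With every stage-3 list cut to 10616 peaks, the 3 shortest lists (10616 and 13677 peaks under *fuchi* pRNAi and 12494 in wild-type replicate 2) had medians of 92.2, 90.3 and 89.3. The 3 longest (23045 and 19732 peaks under *Pt-hh* pRNAi and 19812 in wild-type replicate 1) had 84.8, 86.6 and 84.4. The part of list length in the difference was not tested.

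Counted member by member, the same libraries gave the same order, which restates the shift in the medians and adds no evidence. Of 1093 members with a peak in all 6 stage-3 lists of equal length, 572 (52.3%) ranked higher in both *fuchi* pRNAi libraries than in both *Pt-hh* pRNAi libraries and 125 (11.4%) ranked lower, against 25.5% and 24.4% of all 4252 regions under the same condition, members included. Of 3159 other stage-3 regions, 16.2% ranked higher and 28.8% lower. Set beside the stage-3 wild type, 377 members (34.5%) were higher and 92 (8.42%) lower under *fuchi* pRNAi, against 22.6% and 16.1% of the 4252. Under *Pt-hh* pRNAi 122 members (11.2%) were higher and 190 (17.4%) lower, against 20% and 12%. These comparisons share their libraries and are given side by side without a test. The limits of the medians hold here too, which followed list length and turned round with all deposited peaks. The wild-type lists also served to choose the members.

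Few members had no peak in a knockdown. At the length of 10616 peaks the stage-3 wild type itself had a peak in 1186 and 1206 of the 1216 members (97.5% and 99.2%). Neither *fuchi* pRNAi library had a peak in 5 members (0.411%), against 70.2% of all regions and 16.5% of the other stage-3 regions. Neither *Pt-hh* pRNAi library had one in 20 members (1.64%), against 71.2% and 9.57%. Only 2 members had no peak in any of the 4, against 63.6% of all regions and 4.73% of the other stage-3 regions. Among the full deposited lists none did, against 0.866% of the other stage-3 regions. Searching the full lists left the 5 members without a *fuchi* pRNAi peak at 5 and reduced the 20 members without a *Pt-hh* pRNAi peak to 1. Of the other stage-3 regions, 854 (12.7%) and 92 (1.37%) had none. The share over all regions was not computed for the full lists. The full *Pt-hh* pRNAi lists are the longer ones. Both counts moved with the libraries used, and no share over all regions was computed for the counts that follow. Leaving out a wild-type library also changed the members, to between 1257 and 1961 regions. Leaving out a knockdown library left only 1 library of that knockdown to lack a peak, so its count could not fall. Leaving out stage-1 replicate 1 or 2, stage-2 replicate 1 or 2 or stage-3 replicate 1 or 2 gave 8, 17, 10, 15, 18 and 9 members without a *fuchi* pRNAi peak, and leaving out *fuchi* pRNAi replicate 1 or 2 gave 24 and 25. The count for *Pt-hh* pRNAi was 41 without stage-1 replicate 2, 31 without stage-2 replicate 1, 81 without stage-3 replicate 1, and 39 and 54 without *Pt-hh* pRNAi replicate 1 or 2.

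The 5 members without a *fuchi* pRNAi peak had mean wild-type percentiles of 45.7 to 63.7. NW_018370942.1:9085619-9086824 had no peak in either *fuchi* pRNAi library, stood at percentiles 30.4 and 78.2 under *Pt-hh* pRNAi and stood at 70.6 and 47.1 in stage-3 wild type. NW_018368549.1:1156007-1156874 likewise had none under *fuchi* pRNAi, 46.2 and 88.7 under *Pt-hh* pRNAi and 73.7 and 80.4 in stage-3 wild type. These were the only 2 members where both *Pt-hh* pRNAi replicates had a peak and no *fuchi* pRNAi replicate did, a pattern found in 2.2% of all regions and 6.48% of the other stage-3 regions. NW_018378148.1:567058-568962 had a peak in *Pt-hh* pRNAi replicate 1 only, at 46.0, and stood at 36.2 and 79.0 in stage-3 wild type. The remaining 2, NW_018380111.1:3261909-3263096 and NW_018379896.1:67660-68653, had no peak in any knockdown list of equal length. In stage-3 wild type they stood at 45.6 and 33.4 and at 48.5 and 26.2, and the first of them at 95.04 and 39.3 at stage 1.

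The reverse pattern, with peaks in *fuchi* pRNAi replicates 1 and 2 but in no *Pt-hh* pRNAi replicate, was found in 11 members (0.905%), against 1.53% of all regions and 1.64% of the other stage-3 regions, so the members' share did not exceed the background. The strongest of the 20 members without a *Pt-hh* pRNAi peak was NW_018378079.1:2313753-2315780, at 97.7 and 96.5 under *fuchi* pRNAi and at 72.8 and 97.2 in stage-3 wild type. In the full *Pt-hh* pRNAi lists its peaks stood at ranks 14503 and 10692, the second just beyond the length used. NW_018378818.1:425125-426313 stood at 76.6 and 63.8 under *fuchi* pRNAi and at 31.4 and 84.1 in stage-3 wild type. In NW_018376834.1:7895147-7895455, a narrow region of 309 bp, only replicate 2 of *fuchi* pRNAi had a peak, at 59.0, and the stage-3 wild type stood at 17.9 and 73.3. In these 3 the stage-3 wild-type replicates lay far apart, with replicate 1 the lower. NW_018367643.1:5508287-5509710 stood at 24.4 and 29.5 under *fuchi* pRNAi and at 53.6 and 45.7 in stage-3 wild type. Part of this gap comes from the shorter knockdown lists, in which a given rank has a lower percentile. NW_018372985.1:445029-445755 stood at 75.5 and 49.9 under *fuchi* pRNAi and at 6.30 and 62.6 in stage-3 wild type.

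The members whose rank had moved between wild-type stages 1 and 3 were followed into the knockdown lists, with all 10 lists cut to 10616 peaks and an absent peak counted as percentile 0. The 114 members that were higher at stage 3 had medians of 85.6 and 90.6 under *fuchi* pRNAi, 91.3 and 91.6 under *Pt-hh* pRNAi and 91.7 and 90.8 in stage-3 wild type, against 55.2 and 34.1 at stage 1. Above their stage-1 mean lay 106 and 112 of the 114 under *fuchi* pRNAi and 113 and 114 under *Pt-hh* pRNAi. These members were picked for low values at stage 1 and high values at stage 3, so counts against the stage-1 mean are in part fixed by the choice and no direction is read from them. The 166 members that were lower at stage 3 had medians of 83.0 and 75.2 under *fuchi* pRNAi, 47.7 and 48.9 under *Pt-hh* pRNAi and 33.8 and 69.0 in stage-3 wild type, against 92.1 and 92.0 at stage 1. Below their stage-1 mean lay 135 and 159 of the 166 under *fuchi* pRNAi and 162 and 163 under *Pt-hh* pRNAi. These members were picked for high values at stage 1 and low values in both wild-type stage-3 libraries. Comparisons with those libraries are in part fixed by the choice, and no direction is read from them. Over all 1216 members the medians by the same measure were 91.9 and 90.04 under *fuchi* pRNAi, 83.2 and 85.8 under *Pt-hh* pRNAi and 83.5 and 89.1 in stage-3 wild type, so the *fuchi* pRNAi libraries stood highest there too. As before, the 3 libraries with the shorter deposited lists stood above the 3 with the longer ones, and the part of list length was not tested.

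**Figure D5:**
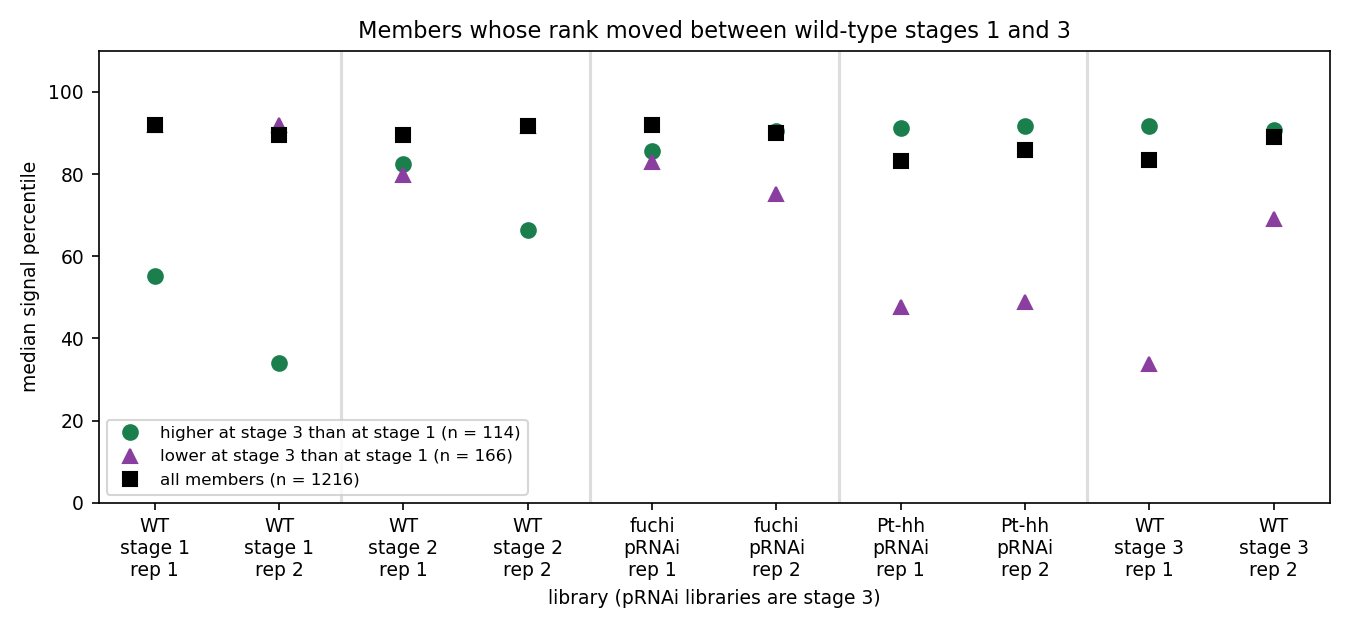
Median signal percentile (y axis) in each of the 10 libraries (x axis) of the 114 members that ranked higher at wild-type stage 3 than at stage 1 (circles), the 166 that ranked lower (triangles) and all 1216 members (squares). The circles lie at 85.6 to 91.6 in the 4 knockdown libraries; the triangles lie at 83.0 and 75.2 under *fuchi* pRNAi, 47.7 and 48.9 under *Pt-hh* pRNAi and 33.8 and 69.0 in stage-3 wild type.

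The single regions named above are the extremes of the values they were picked on, and they differed among themselves. NW_018379581.1:122809-124323, low at stage 3, stood at 92.4 and 73.9 under *fuchi* pRNAi and at 52.6 and 29.4 under *Pt-hh* pRNAi, against 19.2 and 25.9 in stage-3 wild type. For NW_018375723.1:622750-623412 the values were 64.0 and 22.7 under *fuchi* pRNAi, 2.35 and 48.3 under *Pt-hh* pRNAi and 6.85 and 12.3 in stage-3 wild type, with wide gaps between replicates. NW_018382482.1:110771-111569 stood at 77.0 and 17.3 under *fuchi* pRNAi, at 23.3 with no peak in replicate 2 under *Pt-hh* pRNAi and at 16.6 and 8.96 in stage-3 wild type. NW_018370960.1:612822-614366, high at stage 3, stood at 74.2 and 92.4 under *fuchi* pRNAi, 98.6 and 98.7 under *Pt-hh* pRNAi and 95.3 and 98.3 in stage-3 wild type. The other 2 high at stage 3 lay at 80.3 to 93.6 in all 4 knockdown libraries.

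Gene positions on Ptep_2.0 were at hand for 232 genes, taken from the study's annotation of regions it had called in these same libraries. These genes are therefore no sample of all genes, and their values are no independent evidence of a direction after knockdown. Within 10 kb of 23 of them lay 31 members (2.55%), and 20 genes had a member inside their span. The genes named here are those of the 23 with a described protein product in which members lay inside the span, chosen after their values were seen. Exons, introns and start sites were not used here.

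The locus of *Pt-hh* itself, LOC107451809 (sonic hedgehog protein-like), held 2 members among its 10 regions. NW_018380730.1:87029-87899 stood at 93.2 and 91.9 under *fuchi* pRNAi, 89.9 and 88.5 under *Pt-hh* pRNAi and 94.4 and 93.0 in stage-3 wild type, and at 80.1 and 93.4 at stage 1. The other, NW_018380730.1:118940-119721, stood at 87.9 and 85.9, at 84.4 and 89.4, and at 94.1 and 89.995 in the same 3 stage-3 groups. Both members had a peak in all 4 knockdown libraries. Of the other 8 regions of the gene, 4 were in both stage-3 wild-type lists. LOC107456131 (transcription factor GATA-4), a gene for a factor that binds GATA sites, is not among the 23 and was added after its values were seen. It had 4 regions and no member.

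Several of the named genes encode regulators of transcription, and their members ranged from low to high rank. LOC107439560 (homeobox protein Meis2), a cofactor of Hox proteins in other animals, had 1 member among 42 regions, NW_018376796.1:5134375-5135200, at 96.8 and 96.2 under *fuchi* pRNAi, 96.9 and 96.4 under *Pt-hh* pRNAi and 96.9 and 96.9 in stage-3 wild type. LOC107445534 (protein groucho-1-like), a corepressor in *Drosophila*, had 1 among 21, NW_018370835.1:1284042-1285044, at 96.1 and 96.1, at 97.5 and 98.0, and at 98.1 and 94.6 in the same groups. LOC107444248 (polycomb group protein Psc-like), which belongs to a repressive chromatin complex in *Drosophila*, had 2 among 23. NW_018367643.1:273503-274623 stood at 82.5 to 96.9 in all 10 libraries, while NW_018367643.1:328109-328990 stood at 20.3 in stage-1 replicate 2 and at 93.4 or more in the other 9. LOC107450665 (homeobox protein Hox-B4-like) had 1 among 8, NW_018374002.1:2814400-2815658, at 88.3 to 98.6 in all 10. LOC107452304 (aryl hydrocarbon receptor nuclear translocator homolog), a partner of other bHLH-PAS factors, had 1 among 7, NW_018374858.1:2025785-2026199, at 90.1 to 96.9 in all 10. LOC107445627 (autism susceptibility gene 2 protein) held NW_018377246.1:1904799-1905692, at 76.7 to 97.5. The members of LOC107441771 (protein tiptop-like), a zinc finger protein in *Drosophila*, were weaker, with NW_018373717.1:2484005-2484699 at 23.5 to 82.9 and NW_018373717.1:2502944-2503803 at 37.3 to 85.5.

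At LOC107440842 (zinc finger protein ush-like), whose *Drosophila* relative U-shaped is a cofactor of GATA factors, the single member ranked lower under *fuchi* pRNAi. NW_018369952.1:430468-431759 stood at 63.7 and 81.3 under *fuchi* pRNAi, 97.3 and 97.1 under *Pt-hh* pRNAi and 98.3 and 94.6 in stage-3 wild type. It was the only member among the gene's 9 regions. Both *fuchi* pRNAi values lay below all 8 others, the lowest of which was 88.7 at stage 2. The gene's position was at hand because the study had called a region there in these same libraries. The lower rank is thus no independent evidence, and the paper already places a U-shaped homolog in its lists of genes affected by *fuchi* pRNAi.

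Other products were a receptor, a surface protein and enzymes. LOC107439542 (acetylcholine receptor subunit alpha-like 1) and LOC107442811 (lachesin-like, an immunoglobulin-type cell surface protein in insects) each contained 1 of the 5 members without a *fuchi* pRNAi peak, NW_018368549.1:1156007-1156874 and NW_018378148.1:567058-568962. The lachesin-like gene held a second member, NW_018378148.1:578128-580190, at 98.1 and 98.5 under *fuchi* pRNAi, 94.1 and 95.5 under *Pt-hh* pRNAi and 87.0 and 96.2 in stage-3 wild type. So 1 gene contained both a member that kept its rank and one that had no *fuchi* pRNAi peak. LOC107457386 (kinesin heavy chain-like, a motor protein) held NW_018377268.1:900055-901022, at 60.9 and 79.0 under *fuchi* pRNAi, 96.1 and 82.1 under *Pt-hh* pRNAi and 94.6 and 88.8 in stage-3 wild type. LOC107450099 (ubiquitin carboxyl-terminal hydrolase isozyme L3) held a member at 78.6 and 93.6, at 97.8 and 82.8, and at 95.6 and 97.1 in these groups. LOC107442449 (mitogen-activated protein kinase-binding protein 1-like) held one at 86.0 and 67.0, at 37.2 and 63.4, and at 73.5 and 25.9.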

How the data were processed

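Per the study's methods and the submitters' processing notes, the authors trimmed reads with Trim Galore, aligned them to Ptep_2.0 with Bowtie2 2.2.5, removed duplicates with Picard and called peaks per library with Genrich 0.6. The deposited signal is the area of significance along a peak as the caller gave it (200 or more in every list). The deposited −log10 p-value belongs to the summit, and the deposited summit distance is counted from the start of the peak. The caller's settings fix which fragment ends were counted and could not be changed. No read totals were used, so depth is unknown and no counting interval is given.

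Wild-type lists were cut to 12494 peaks and pRNAi lists to 10616, by signal. The percentiles of single regions are relative to these unequal lengths. Peaks overlapping by 1 bp or more were merged, and coordinates count from 1. Equal length does not make depths equal, and a region without a listed peak may still be open. Other stage-3 regions are non-members found in each of the 2 stage-3 wild-type lists. The fold or level of signal was not compared between libraries. Tests were exact permutations over libraries, adjusted over 5 tests, with Python and numpy (versions 3.11.15 and 2.4.6); the region rule was tested on simulated lists.

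Named regions followed a rule: the 10 members of highest mean wild-type percentile, 5 without peaks in each knockdown, the 3 widest, 3 with the largest change each way, 3 on each side of the list length and the 3 scaffolds with most members. The members, rules and tests were chosen with earlier results of these data known. Alternatives were all peaks, shorter lists, ranking by p-value, another overlap, summit windows, each library left out and replicate blocks. Of the 232 genes with a position, 210 were in a RefSeq gene table of another assembly, used for names only. No genome or annotation of Ptep_2.0 was used, so the planned sequence, GC content, motif and gene-group descriptions were not made.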

Additional observations from a re-analysis of the deposited data

How the results depend on the processing

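The differences between the members and the other stage-3 regions kept their sign under every alternative run. With each library left out in turn they were 17.9 to 37.3 points in the share with a peak, 25.8 to 32.9 points in the median percentile and 82.9 to 116 bp in width. The highest values came without stage-3 replicate 2, where the other regions needed a peak only in the 1 remaining stage-3 list. The differences for *fuchi* pRNAi minus *Pt-hh* pRNAi were 0.810 to 5.88 points in the share and 4.08 to 6.48 points in the percentile with a library left out, and reversed with all deposited peaks (-4.41 and -3.45 points). The members numbered 2788 with all deposited peaks, 741 with lists of 6247 peaks and 1257 to 1961 with a wild-type library left out. Members without a *fuchi* pRNAi peak numbered 50 with all deposited peaks, 2 with the shorter lists and 5 to 25 with a library left out. Those without a *Pt-hh* pRNAi peak numbered 12 with all deposited peaks, 1 with only the pRNAi lists in full and 20 to 81 with a library left out. With a knockdown library left out, only 1 library of that knockdown had to lack a peak, so its count could not fall. The cause of the other changes was not tested. The remaining alternatives (peaks ranked by their p-value, merging only at 50% overlap or more, 200 bp windows at the summits) kept every sign, and every count within 1.5 times, but with the summit windows the difference in width was 30.1 bp, against 101 bp in the main comparison.

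Apart from the line in the wild type, the labels tie no shared batch to the replicate numbers. In the wild type every replicate 1 is of line 39, and replicates 2 of stages 2 and 3 are of line 40. Between *fuchi* pRNAi and *Pt-hh* pRNAi, where the numbers do not follow the line, same-numbered deviations of the members had r = -0.14 over 1117 members. With the replicate block the differences stayed 1.81 and 5.57 points with an exact p of 0.5, the smallest possible, and pairing the numbers crosswise, an alternative added after seeing the data, gave the same values. With the libraries of line 40 only, also added later, they were 2.43 and 6.47 points. With 2 libraries against 2 no p below 0.333 is possible, and unknown depth limits what a missing peak shows.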
